A study of Mus musculus with 2 samples.

Results

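Osteoblasts build bone in steps. The transcription factors Runx2 and Sp7 commit a mesenchymal cell to the lineage, the phosphatase Alpl and matrix proteins such as Ibsp mark cells that lay down and mineralise matrix, and Dmp1, Mepe, Phex and Sost mark cells that are becoming, or are, osteocytes within bone. Ank stands beside this ladder as a transporter that moves pyrophosphate, an inhibitor of mineral growth, out of the cell. These 9 genes were taken as the core osteoblast differentiation genes by name. Each was measured through the probe sets whose annotation names that gene and no other, which gave 8 genes on 11 probe sets, of 12393 genes in all. Runx2 has no such probe set in the annotation used and was not analysed here.

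The cells were primary calvarial osteoblasts, grown out of the skull vault of C57Bl/6 mice aged 4 to 5 days, in DMEM with FBS and GlutaMax. Osteoblasts labelled Col1-Dlk1, from mice that overexpress Dlk1, were put on 1 array, and osteoblasts labelled wild type, from littermates without the transgene, on the other. The labels name the Col1 and Dlk1 parts of the transgene and do not describe its promoter further. Col1-Dlk1 cells were sorted for Dlk1, per the labels' protocols, and the sources used here do not say whether wild-type cells were sorted. Material of 3 cultures was combined for each array, so there is no replicate, no test and no standard error, and every difference compares these arrays and not the genotypes. The only Dlk1 probe set read 26.5 on the Col1-Dlk1-labelled array and 306 on the wild-type-labelled array, which goes against the labels. Every direction below is therefore between the arrays as labelled.

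The question was how far along osteoblast maturation these cultures stood, and whether the arrays differed in it. The deposited values are probe-set intensities in arbitrary units. A percentile below is the share of all 22626 non-control probe sets of an array that read the same or lower. Probe sets differ in how well they bind their target, so a percentile places a probe set on its array and does not rank genes by transcript number. Differences are the Col1-Dlk1-labelled array minus the wild-type-labelled array on the log2(intensity + 10.96) scale, where 10.96 is the 25th percentile of all values. The added constant makes differences of dim genes smaller than the plain ratio of their intensities would give. The level threshold was 42.8, the median over both arrays. A gene passed it if either of its 2 values was that high, and was called if it also differed at least 2-fold.

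Of the 8 measured core genes, Ank was read at a high level on both arrays, Sp7 lay just below the level threshold on both, and Alpl, Ibsp, Dmp1, Mepe, Phex and Sost lay low on both. In all, 7 of 8 missed the level threshold on both arrays, as did 45.2% of all genes. None of the 8 was called higher, where 5.15% of all genes were, and none was called lower, where 3.9% were. Genes below the level threshold cannot be called at any fold, so for 7 of the 8 the count of calls says nothing about a difference. The median difference of the 8 was -0.29, beside 0.01 over all 12393 genes. In RNA pooled from many cells, fewer cells of a type and less RNA per cell cannot be told apart.

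The core genes differ widely in the CpG content of their promoters, and sequences are shown of windows with many and with few CpG sites. The RefSeq table (GRCm38.p6) holds 10 promoter windows for 8 of the 9 genes. The 250 bases upstream of the annotated start are printed for Ank, for the CpG-rich window of Alpl and for Ibsp and Mepe as 2 dim genes with few CpG sites, 5′ to 3′ on the strand of the gene. Capitals mark CpG sites. Ank lies at chr15:27466427-27466676 (+ strand), Alpl at chr4:137796385-137796634 (- strand), Ibsp at chr5:104299037-104299286 (+ strand) and Mepe at chr5:104325079-104325328 (+ strand).
Ank: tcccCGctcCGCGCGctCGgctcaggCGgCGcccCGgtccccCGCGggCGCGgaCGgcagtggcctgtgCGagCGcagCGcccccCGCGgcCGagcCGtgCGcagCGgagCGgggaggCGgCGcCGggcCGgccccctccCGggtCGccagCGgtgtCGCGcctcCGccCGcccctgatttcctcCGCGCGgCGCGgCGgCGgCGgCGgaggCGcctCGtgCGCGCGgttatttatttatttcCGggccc
Alpl: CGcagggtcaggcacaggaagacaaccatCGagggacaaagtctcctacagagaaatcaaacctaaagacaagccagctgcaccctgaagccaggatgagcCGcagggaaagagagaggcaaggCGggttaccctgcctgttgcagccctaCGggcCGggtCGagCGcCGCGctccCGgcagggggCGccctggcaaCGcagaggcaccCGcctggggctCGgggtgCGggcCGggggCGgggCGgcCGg
Ibsp: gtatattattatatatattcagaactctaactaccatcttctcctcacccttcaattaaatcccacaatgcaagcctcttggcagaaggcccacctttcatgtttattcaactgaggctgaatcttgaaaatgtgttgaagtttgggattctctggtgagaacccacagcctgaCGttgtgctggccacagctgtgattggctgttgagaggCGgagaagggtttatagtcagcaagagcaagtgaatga
Mepe: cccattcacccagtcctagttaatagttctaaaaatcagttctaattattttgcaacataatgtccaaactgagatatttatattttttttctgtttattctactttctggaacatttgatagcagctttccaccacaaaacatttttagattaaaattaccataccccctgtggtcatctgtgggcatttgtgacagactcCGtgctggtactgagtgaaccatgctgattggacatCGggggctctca

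The Ank window holds 49 CpG sites, at 81.2% G and C, and a CpG observed over expected ratio of 1.19. The printed Alpl window holds 20, with a ratio of 0.69. Alpl read low on both arrays, and which of its windows is used in these cells was not tested. The Ibsp and Mepe windows hold 2 each, with ratios of 0.17 and 0.23. The windows of Dmp1, Phex, Sost and the other window of Alpl hold 3 to 6 CpG sites, and that of Runx2 holds 0. Over all 32851 windows the median was 6 sites and a ratio of 0.37. Windows of genes that passed the level threshold had a median ratio of 0.74 and those of genes below it 0.43, a description across genes with no test.

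The letters TGTGGT or ACCACA, a core that Runx proteins bind, were searched on both strands. They occur in 3 of the 10 windows, in 1 window each of Runx2, Dmp1 and Mepe, and in 14.0% of all windows. In Mepe, TGTGGT begins 80 bases and ACCACA 118 bases before the start. In Runx2, ACCACA begins 80 bases before the start. The GC box letters GGGCGG or CCGCCC, which contain a CpG, occur in the windows of Ank and Alpl printed above and in 32.7% of all windows. The letters TATAAA or TTTATA occur in 3 of the 10 windows, those of Ibsp, Mepe and the other window of Alpl, and in 12.4% of all windows. In Ibsp they begin 28 bases before the start. A match is a description of these letters only.

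Sp7 (osterix) is the zinc finger transcription factor that acts after Runx2 in bone formation. Its probe set read 38.2 on the Col1-Dlk1-labelled array and 40.1 on the wild-type-labelled array. These lie at percentiles 47.6 and 49.5, near the middle of each array and just under the level threshold of 42.8. The difference was -0.05, and 89.0% of the 5598 genes below the level threshold differed by as much or more in either direction.

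Alpl encodes the tissue-nonspecific alkaline phosphatase, which splits pyrophosphate and is a classical stain for osteoblasts. Its probe set read 6.84 on the Col1-Dlk1-labelled array and 18.0 on the wild-type-labelled array, at percentiles 19.1 and 34.0. The wild-type array was the higher, with a difference of -0.70. Among genes below the level threshold, 11.1% had a difference as low or lower, and 23.0% had one as large in either direction.

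Ibsp encodes bone sialoprotein, an acidic matrix protein that binds mineral. The dimmer of its 2 probe sets read 0.56 on the Col1-Dlk1-labelled array and 1.15 on the wild-type-labelled array, and the other read 5.62 and 1.59. The 2 probe sets point in opposite directions, by -0.07 and 0.40, and all 4 readings lie at or below percentile 17.2. Their mean difference of 0.16 was the only positive value among the core genes.

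Dmp1 and Mepe encode acidic phosphoproteins of the same family as bone sialoprotein, and are made mostly by cells that turn into osteocytes. Dmp1 read 0.48 on the Col1-Dlk1-labelled array and 1.70 on the wild-type-labelled array, at percentiles 0.44 and 6.51. Mepe read 2.70 and 4.90, at percentiles 10.2 and 16.5. Both were lower on the Col1-Dlk1-labelled array, by -0.15 and -0.21, which is less than the median absolute difference of 0.34 among genes below the level threshold. In the RefSeq gene table, Dspp, Dmp1, Ibsp, Mepe and Spp1 follow each other on chromosome 5 with no other protein-coding gene between them. Dspp, which encodes a dentin matrix protein and was named after its value was seen, read 2.21 and 1.84, so all 4 measured genes of this cluster were dim on both arrays. Spp1 (osteopontin) was not analysed here.

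Phex encodes a cell-surface endopeptidase whose loss causes phosphate wasting. Its probe sets were both lower on the Col1-Dlk1-labelled array. The brighter read 3.33 there and 11.0 on the wild-type-labelled array, and the dimmer read 1.05 and 2.10. The mean difference was -0.37, and 46.7% of genes below the level threshold differed by as much or more. The added constant limits this comparison too. The plain ratios of the intensities were 3.31 for the brighter probe set and 1.99 for the dimmer.

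Sost encodes sclerostin, the Wnt inhibitor that mature osteocytes secrete. Its probe sets disagreed. The probe set that was higher on the Col1-Dlk1-labelled array read 5.17 there and 1.65 on the wild-type-labelled array, a difference of 0.35. The other read 0.60 and 22.2, a difference of -1.52. The reading of 22.2 lies at percentile 38.3 and the other 3 lie at or below percentile 16.4, so the mean of -0.58 rests on 1 reading. Such disagreement is common at this level: of 857 genes with 2 probe sets that are both below the level threshold, 389 (45.4%) had probe sets of opposite sign. Among 1391 genes with 2 probe sets that both pass it, 318 (22.9%) did.

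**Figure D1:**
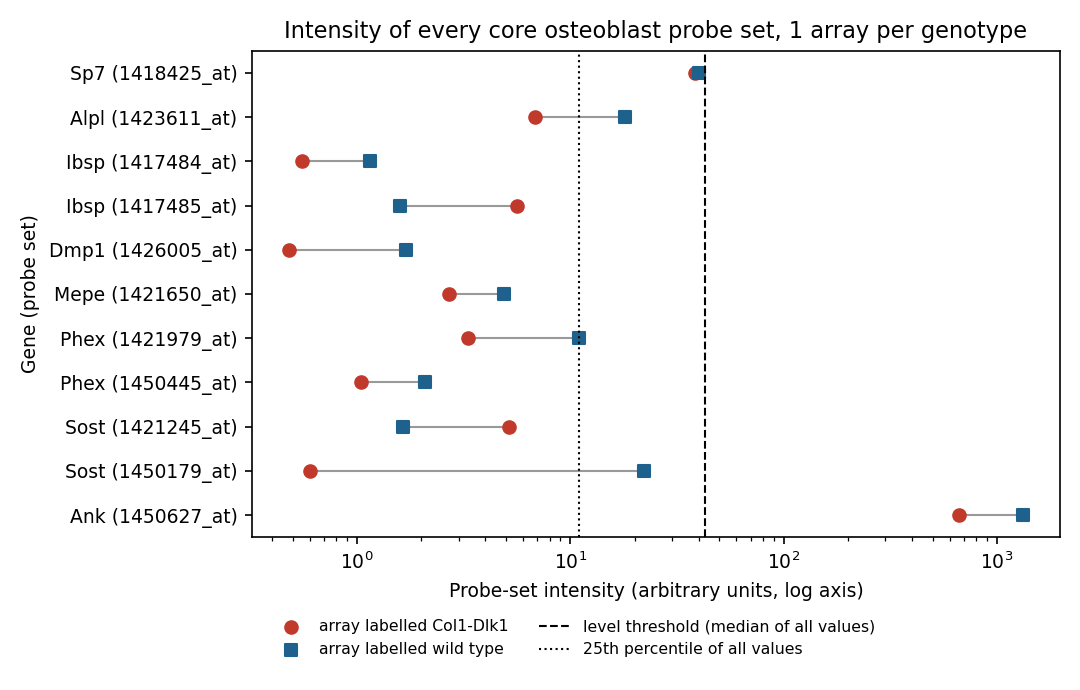
Intensity of each of the 11 core osteoblast probe sets on a log axis, in arbitrary units, with circles for the Col1-Dlk1-labelled array and squares for the wild-type-labelled array. Vertical lines mark the 25th percentile of all values (10.96) and the level threshold (42.8). Ank stands alone to the right of the threshold, at 666 and 1323, and the probe sets of Ibsp and of Sost point in opposite directions.

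Ank was the core gene nearest to a call. Its probe set read 666 on the Col1-Dlk1-labelled array and 1323 on the wild-type-labelled array, at percentiles 92.9 and 96.6. The wild-type array was 1.97-fold higher on the log2(intensity + 10.96) scale, a difference of -0.98, just short of the 2-fold rule. Of 6795 genes that passed the level threshold, 503 (7.40%) had a difference as low or lower, so a difference of this size is not rare between these arrays. With each array centred on its median log2 value the difference was -1.04 and Ank was called lower. Ank has 1 probe set, so no second probe set repeats the reading.

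By sign alone, 7 of the 8 genes read lower on the Col1-Dlk1-labelled array, where 48.8% of all genes were. For 6 of these 7 the signs come from readings below the level threshold, where probe sets of a gene often disagree. Of the 11 probe sets, 9 read below 10.96 on the Col1-Dlk1-labelled array and 6 did on the wild-type-labelled array. The only core probe set at or above the level threshold was that of Ank, on both arrays.

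**Figure D2:**
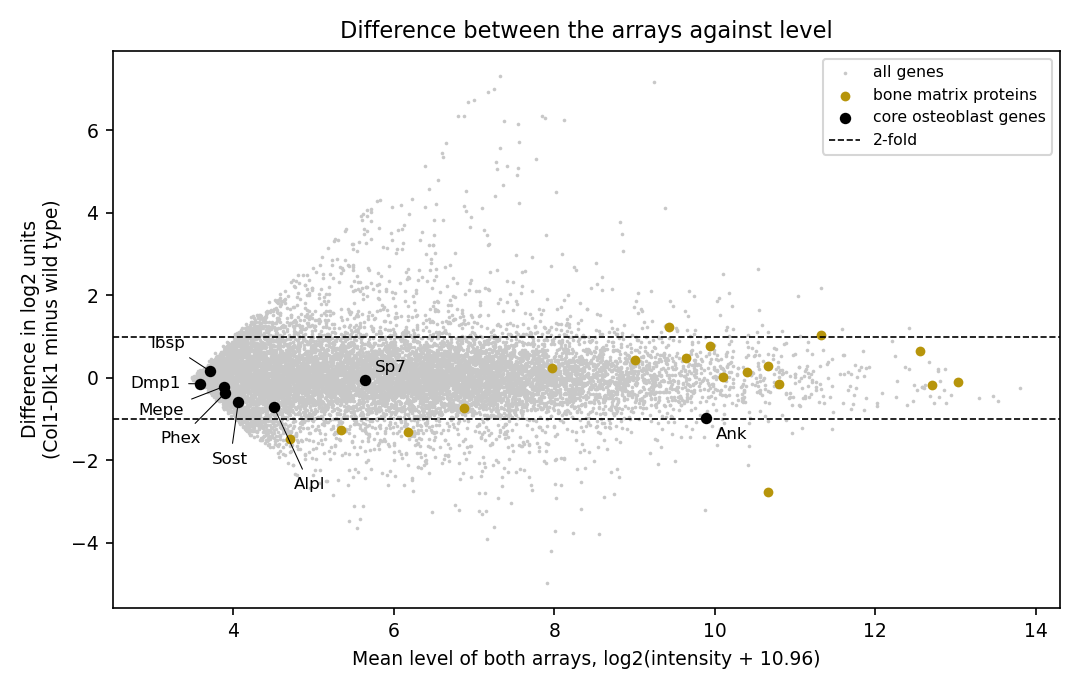
Difference between the arrays in log2 units (Col1-Dlk1-labelled array minus wild-type-labelled array) against the mean log2(intensity + 10.96) of both arrays, 1 point per gene. Grey points are all 12393 genes, black points the 8 core osteoblast genes and gold points the measured bone matrix proteins. Dashed lines mark 2-fold. Apart from Ank, at -0.98, and Sp7, the core genes lie at the dim left end, where the pseudocount narrows the possible differences.

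The measured genes of a wider list of bone matrix proteins were read at a quite different level. Of its 24 listed genes 18 were measured, and Bglap and Spp1 are among those not analysed here. Ibsp, also a bone matrix protein, is counted with the core genes. The levels below therefore depend on which genes the list holds, and it is not limited to genes particular to bone. Its intensities ran from 4.62 to 8101 on the Col1-Dlk1-labelled array and from 32.7 to 8709 on the wild-type-labelled array. Of 18 measured genes for bone matrix proteins, 17 passed the level threshold, and their median percentile was 95.8 on the Col1-Dlk1-labelled array and 94.8 on the wild-type-labelled array. For the core genes these medians were 10.5 and 20.7. The collagen chains of bone, Col1a1 and Col1a2, and Sparc (osteonectin), which binds collagen and mineral, had percentiles from 97.0 to 99.8 on the arrays. Col1a1 read 1772 and 1462 (0.28), Col1a2 read 6261 and 7071 (-0.18), and Sparc read 7535 and 4818 (0.64), in each case with the Col1-Dlk1-labelled array given before wild type. Of the 9 osteoblast markers set out for checking the labelled cell type, these 3 thus passed the level threshold, Sp7, Alpl and Ibsp did not, and Runx2, Bglap and Spp1 were not analysed here. Fibroblasts also make type I collagen and Sparc.

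**Figure D3:**
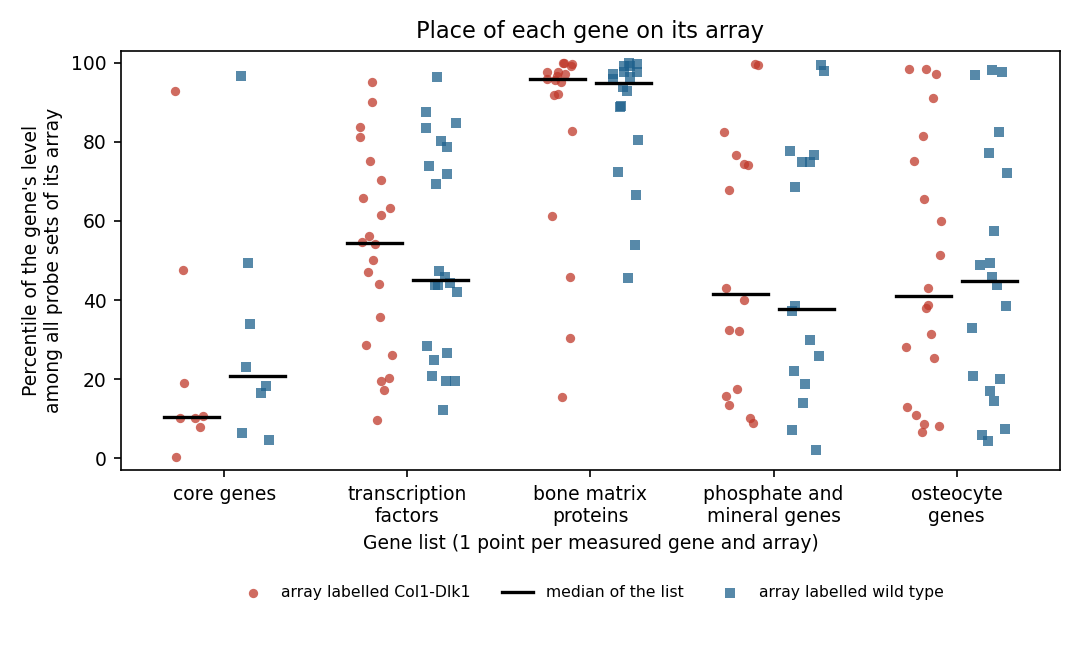
Percentile of each gene's level among all non-control probe sets of its array, with 1 circle (Col1-Dlk1-labelled array) and 1 square (wild-type-labelled array) per measured gene, and a bar at the median of each list. The core genes have medians of 10.5 and 20.7, while the bone matrix proteins have medians of 95.8 and 94.8.

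Among bone matrix proteins, 2 of 18 measured genes were called higher and 3 lower, with a median difference of 0.08. Postn (periostin), a matrix protein of periosteum and sutures, read 609 on the Col1-Dlk1-labelled array and 4232 on the wild-type-labelled array (-2.78). Omd (osteomodulin), a proteoglycan of mineralised matrix, read 34.9 and 102 (-1.31), and Smoc2, a calcium-binding matrix protein, read 15.1 and 52.0 (-1.27). The called-higher genes were Thbs2, a thrombospondin, at 1049 and 439 (1.24), and Thbs1 at 3662 and 1785 (1.03). A probe set that names Thbs1 together with another gene was left out of its average. It read 2113 and 1364, a difference of 0.63, within 2-fold. With the highest probe set of each gene in place of the average, 0 of the 18 were called higher and 2 lower. Postn and Omd have 1 probe set each, so the lower call lost there was that of Smoc2. With median centring 1 was called higher and 3 lower. With a pseudocount of 50, or the level threshold at the 75th percentile of all values, 2 were called higher and 1 lower. Thbs1 was named after its value was seen.

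Of 22 measured transcription factors around Runx2 and Sp7, 2 were called higher, 2 lower and 9 were too dim to call. Over all genes 5.15% were called higher and 3.9% lower, shares that include the 45.2% of genes too dim to call. In numbers, 638 genes were called higher and 483 lower among the 6795 that passed the level threshold. The bone lists differ in how many of their genes pass it, so the shares are a rough guide. Counts of 0 to 3 calls in each direction per bone list are too small to set a list apart from them. Cbfb, the partner subunit of Runx proteins, read 929 on the Col1-Dlk1-labelled array and 1220 on the wild-type-labelled array, within 2-fold (-0.39). Msx2, a homeobox factor of skull growth, read 474 and 29.5 (3.58), and its relative Msx1 read 56.6 and 13.3 (1.48). Vdr, the vitamin D receptor, read 54.6 and 218 (-1.81), and Fosl1, an AP-1 factor, read 89.7 and 301 (-1.63). Dlx5, a homeobox factor that acts with Runx2, read 20.0 and 6.91 and was too dim to call. The list had a median difference of -0.13. Cbfb and Dlx5 were named after their values were seen.

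Genes for phosphate, pyrophosphate and mineral, the setting in which Alpl, Phex and Ank act, had 1 of 16 measured called higher, none lower and 9 below the level threshold. Anxa5, an annexin found in matrix vesicles, was the called gene, at 4623 on the Col1-Dlk1-labelled array and 2018 on the wild-type-labelled array (1.19). The phosphate transporter genes Slc20a1 and Slc20a2 differed by 0.44 and -0.13, and Mgp, an inhibitor of mineralisation, by 0.22 at intensities of 5914 and 5087. The list median was 0.19. Pth1r, the parathyroid hormone receptor, read 29.4 and 1.81, below the level threshold. Enpp1, the enzyme that makes extracellular pyrophosphate, was not analysed here. Slc20a2 and Pth1r were named after their values were seen.

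Other genes of osteocytes had 3 of 20 measured called higher, none lower and 10 below the level threshold, with a median of 0.08. Fgf23, the phosphate-lowering hormone of osteocytes, read 13.4 on the Col1-Dlk1-labelled array and 17.1 on the wild-type-labelled array, below the level threshold on both. Pdpn (podoplanin), a membrane protein of early osteocytes, passed with 1463 and 1851 (-0.34). The called genes were Kcnk2, a potassium channel, at 165 and 38.6 (1.83), the neuropeptide gene Npy at 101 and 39.5 (1.15), and Capg, an actin-capping protein, at 541 and 253 (1.07). Tnfrsf11b (osteoprotegerin), the decoy receptor that restrains osteoclasts, differed by -0.86. Fgf23 and Pdpn were named after their values were seen.

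**Figure D4:**
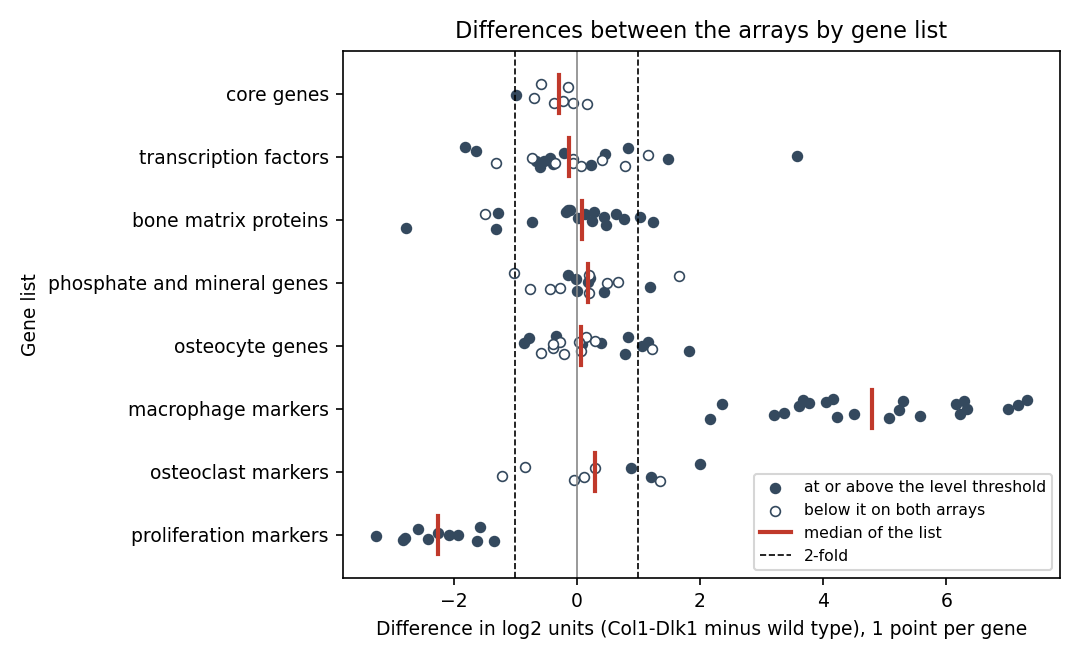
Difference between the arrays in log2 units (Col1-Dlk1-labelled array minus wild-type-labelled array) for each gene of 8 lists, with filled points for genes at or above the level threshold, open points for genes below it on both arrays, and a bar at each list's median. The core genes lie between -0.98 and 0.16, while macrophage markers lie between 2.17 and 7.32 and proliferation markers between -3.26 and -1.34.

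Macrophage and proliferation markers differed between the same arrays. All 22 macrophage markers were called higher on the Col1-Dlk1-labelled array, with a median of 4.79. Their intensities ranged from 91.9 to 7267 there and from 1.16 to 111 on the wild-type-labelled array, and their sums were 27304 and 457. All 11 measured proliferation markers were called lower, with a median of -2.25 and sums of 1929 and 7246. Osteoclast markers had 2 of 9 measured called higher, Acp5 (2.00) and Ctsk (1.21), and 6 below the level threshold. Of chondrocyte markers 1 of 15 was called, Sox9 at -1.35, and 12 were below the level threshold. Of the 6 adipocyte, 11 endothelial and 10 skeletal muscle markers measured, none was called. Below the level threshold were 6, 10 and 9 of these, which cannot be called at any fold. For such dim lists the count of calls says little about a difference. The part of macrophage RNA, or of a difference in growth, in the values of Ank and the other core genes was not tested. Nor was it tested for the genes of the bone lists, such as Capg.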

How the data were processed

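Probe-set intensities of 2 arrays were deposited by the authors on a linear scale, and the submitters' processing notes name Affymetrix Expression Console 1.1.1. The sources used here do not give its algorithm, background step or target value, and the table carries no detection calls. The arrays share a scale, with means of 150.06 (Col1-Dlk1) and 150.07 (wild type) once the outer 2% of values on either side are left out. Probe sets were named from the platform annotation, and symbols updated by gene ID through the RefSeq gene table, which matched 20351 of 20380 single-gene probe sets. The probe sets of a gene were averaged as log2(intensity + 10.96), and printed gene intensities are those averages turned back.

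Genes named are the 9 core genes with every probe set, Dlk1, and up to 4 level-passing genes per list with the largest absolute difference; the whole osteoblast and macrophage marker lists could be named, and exceptions are stated beside the values. With 2 arrays no gene could be named for a pattern like that of a core gene. The core genes and all lists were chosen with earlier results of these data known. The steps were tested on simulated data, with changes put only into genes well above the level threshold. That test does not cover the dim core genes. Alternatives covered scaling (median centring, quantile, loess with a span of 0.3), pseudocount, level threshold, fold, probe-set handling and the reference set of the percentiles. With 1 array per genotype the precision cannot be estimated. The software was Python 3.11.15, pandas 2.3.3, numpy 2.4.6, matplotlib 3.10.9 and statsmodels 0.14.6.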

Additional observations from a re-analysis of the deposited data

How the results depend on the processing

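No paired analysis was possible because there is only 1 array of either genotype, so leaving out replicates was not possible. The count of core genes called lower moved from 0 to 1, which was Ank, with arrays centred on their median log2 value and with a fold of 1.5, and stayed at 0 under the other 9 alternatives. The count called higher was 0 under all 11. Ank differed by -1.04 to -0.90 over the alternatives of scaling, pseudocount and probe-set handling, and no core gene changed sign under them. With a pseudocount of 1, Sost (-1.32), Alpl (-1.28) and Phex (-1.03) differed by more than Ank (-0.99), and with the highest probe set Sost differed by -1.52; these genes were still below the level threshold. The count of core genes below the level threshold was 7 with thresholds at the 75th percentile of all values and 5 at the 25th. Measured against single-gene probe sets only, or the highest probe set of each gene, 10 of 11 core probe sets again lay below percentile 50 on each array, and percentiles moved by -4.84 to 0.45.

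Over the 4 bone lists together, 8 genes were called higher and 5 lower. With a pseudocount of 50 these counts were 5 and 3, with a fold of 1.5 they were 13 and 10, and with a fold of 3 they were 2 and 3. Without a level threshold 8 were lower, and with the threshold at the 75th percentile 3 were. Readings near the bottom of an array limit what can be said of Alpl, Ibsp, Dmp1, Mepe, Phex and Sost: a low intensity does not show that a transcript is absent.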
